A study of Mus musculus with 3 samples.

Results

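Condensin and type II topoisomerase genes were measured by RNA-seq in 3 libraries of pre-B cells sorted from mouse bone marrow. They are the 8 subunit genes of condensin I and condensin II (Smc2, Smc4, Ncapd2, Ncapg, Ncaph, Ncapd3, Ncapg2 and Ncaph2) and the topoisomerase genes Top2a and Top2b, chosen by symbol, and all 10 were found among the 26286 Entrez gene identifiers of the count table. The donors were CAG-rtTA3;TRE-GFP-shLuc.1309 bitransgenic mice given Dox for 3 days, which switched on a control shRNA linked to GFP; every library carried both transgenes and received Dox. The CAG promoter that drives the transactivator is a broadly active one. The cells were GFP+, B220+ and CD25+ and negative for IgM and Kit. Strain and age are not stated in the labels, nor is whether a library pools animals or comes from an animal of its own. With no other group to compare, levels, ratios between related genes and the spread between libraries are the measurements. Under these labels, p-values measure only the spread between these samples, which may in part be technical. Sex-linked transcripts, given below, set replicate 1 apart from replicates 2 and 3, so the 3 libraries did not all come from the same animals. The labels give CASAVA 1.8.0 for replicate 3 and CASAVA 1.8.2 for replicates 1 and 2.

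Condensins are ring-shaped complexes that fold chromatin into loops and compact chromosomes for mitosis. Both forms share the SMC2 and SMC4 ATPase pair. Condensin I adds the kleisin NCAPH and the HEAT-repeat subunits NCAPD2 and NCAPG, and reaches chromosomes once the nuclear envelope opens; condensin II adds NCAPH2, NCAPD3 and NCAPG2 and is nuclear through the cell cycle. Type II topoisomerases pass a DNA duplex through a transient double-strand break in another, which lets sister chromatids untangle. TOP2A is the form of dividing cells and TOP2B is made in dividing and resting cells alike. Pre-B cells divide as large cells and then leave the cycle as small cells that rearrange light chain genes.

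The promoters of Top2a and Top2b are shown first because these genes, whose products do the same reaction, differed in their order across the libraries, and those of Ncapd2, Ncapg and Ncaph because they are the 3 own subunits of condensin I. Each is the 250 bases before the annotated start in RefSeq on GRCm38.p6, written in the direction of transcription. Capitals mark CCAAT boxes (CCAAT), words of the cell cycle genes homology region (TTTGAA, and TTCGAA as a variant) and words of E2F sites (TTTCGCGC, TTTGGCGC, TTTCCCGC), each searched on both strands, with 0 overlaps between marked words in these genes. The regions are chr11:99024190-99024439 (minus strand) for Top2a, chr14:16364956-16365205 (plus strand) for Top2b, chr6:125191587-125191836 (minus strand) for Ncapd2, chr5:45669675-45669924 (plus strand) for Ncapg and chr2:127133955-127134204 (minus strand) for Ncaph.
Top2a: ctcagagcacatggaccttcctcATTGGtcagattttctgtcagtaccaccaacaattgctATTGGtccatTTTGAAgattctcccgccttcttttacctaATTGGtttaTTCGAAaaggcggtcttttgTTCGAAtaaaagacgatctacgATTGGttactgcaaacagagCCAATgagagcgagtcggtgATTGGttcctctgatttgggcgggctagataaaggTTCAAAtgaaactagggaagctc
Top2b: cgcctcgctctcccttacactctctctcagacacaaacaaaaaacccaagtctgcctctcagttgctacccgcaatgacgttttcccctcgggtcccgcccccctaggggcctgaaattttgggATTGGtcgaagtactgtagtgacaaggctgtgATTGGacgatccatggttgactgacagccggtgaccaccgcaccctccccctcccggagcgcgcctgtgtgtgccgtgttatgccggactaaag
Ncapd2: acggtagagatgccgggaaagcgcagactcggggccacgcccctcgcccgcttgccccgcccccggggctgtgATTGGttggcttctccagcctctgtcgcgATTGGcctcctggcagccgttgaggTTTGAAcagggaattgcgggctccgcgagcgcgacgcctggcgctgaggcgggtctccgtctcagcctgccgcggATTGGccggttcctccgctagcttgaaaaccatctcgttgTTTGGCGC
Ncapg: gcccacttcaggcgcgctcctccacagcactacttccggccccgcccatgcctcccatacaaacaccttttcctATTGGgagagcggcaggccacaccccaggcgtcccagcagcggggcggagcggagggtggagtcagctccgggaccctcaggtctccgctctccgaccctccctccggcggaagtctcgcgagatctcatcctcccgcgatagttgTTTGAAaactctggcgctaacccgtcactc
Ncaph: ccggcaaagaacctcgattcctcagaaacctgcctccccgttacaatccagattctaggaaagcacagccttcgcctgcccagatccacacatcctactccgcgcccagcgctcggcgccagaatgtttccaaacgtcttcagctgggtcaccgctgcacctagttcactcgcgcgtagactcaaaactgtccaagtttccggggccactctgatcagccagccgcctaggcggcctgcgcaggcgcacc

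The Top2a window held 6 CCAAT boxes, 2 TTTGAA words and 2 TTCGAA words, whereas the Top2b window held 2 CCAAT boxes and none of the other words. The Ncapd2 window held 3 CCAAT boxes, 1 TTTGAA word and 1 E2F word, the Ncapg window 1 CCAAT box and 1 TTTGAA word, and the Ncaph window none of the words. Of all 32851 windows of this length, 33.8% held CCAAT, 10.1% held it 2 or more times, 16.0% held TTTGAA, 1.34% held TTCGAA and 1.53% held any of the E2F words. Windows were at hand for 9 of the 10 genes, all but Smc4. A CCAAT box together with TTTGAA or TTCGAA stood in 4 of these 9 genes (Top2a, Ncapd2, Ncapg and Smc2), against 7% of all 27025 genes with a window and 6.02% of all windows. The Ncapg2 window held 1 TTTGAA and 1 E2F word, the Ncaph2 window 1 TTCGAA word, and of 2 annotated starts of Ncapd3 only 1 had a word, TTTGAA. These are matches of letters, not measured binding.

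Replicate 3 was the deepest library, with 32086649 counts, against 12418054 for replicate 1 and 12021576 for replicate 2, and the 10 genes had between 1652 and 65054 counts each. All 10 pre-B markers, among them the signalling chain Cd79b (1297 ± 62.2 RPKM) and the CD25 gene Il2ra (89.3 ± 17.7 RPKM), exceeded 1 RPKM in every library, and the negative gate gene Kit stood at 0.791 ± 0.327 RPKM (SD, n = 3). RPKM is the read count scaled to gene length and to the TMM-normalised library size. Of the 12147 genes kept for testing, 11005 had at least 1 RPKM in every library, so passing that level does not set markers apart. Of markers of other cells, those of erythroid cells summed to 19.3 to 22.6 RPKM over 8 genes, T and NK cells to 12.2 to 14.8 over 8, early progenitors to 4.21 to 5.36 over 8 with Mecom at 0 counts, and monocytes and macrophages to 34.1 to 42.1 over 8. The 10 neutrophil markers summed to 2404 RPKM in replicate 3, 1354 in replicate 1 and 1627 in replicate 2, and all 10 exceeded 1 RPKM in every library. Replicate 1 had 22609 counts of Xist, the RNA of the inactive X chromosome, against 70 in replicate 3 and 94 in replicate 2. The Y-linked genes Ddx3y, Eif2s3y and Kdm5d went the other way. They had 1, 0 and 0 counts in replicate 1, 4881, 3573 and 2953 in replicate 3, and 1950, 1635 and 1113 in replicate 2. By these transcripts, replicate 1 was female and replicates 2 and 3 were male. The part of sex in the differences between libraries was not tested. In bulk libraries, fewer cells of a type and less RNA per cell cannot be told apart.

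Top2a (Entrez 21973, chromosome 11) had the highest level of the 10 genes. It stood at 388 RPKM in replicate 3, 344 in replicate 1 and 277 in replicate 2, with a mean of 336 ± 55.7 RPKM (SD, n = 3) that exceeded 99.2% of the 17423 genes with a count. Top2b (Entrez 21974, chromosome 14) stood at 149 RPKM in replicate 3, 141 in replicate 1 and 159 in replicate 2, with a mean of 149 ± 8.81 RPKM. Replicate 2 was thus the lowest library for Top2a and the highest for Top2b.

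Of the shared ATPase core, Smc4 (Entrez 70099, chromosome 3) was the more abundant transcript. It stood at 178 RPKM in replicate 3, 147 in replicate 1 and 144 in replicate 2 (mean 156 ± 19.2 RPKM). Smc2 (Entrez 14211, chromosome 4) stood at 68.5 RPKM in replicate 3, 57.0 in replicate 1 and 52.5 in replicate 2 (mean 59.4 ± 8.25 RPKM). The values of these genes did not overlap, and both were highest in replicate 3.

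Within condensin I, the HEAT-repeat subunit gene Ncapd2 (Entrez 68298, chromosome 6) stood well above its partners. It had 189 RPKM in replicate 3, 156 in replicate 1 and 137 in replicate 2 (mean 161 ± 26.3 RPKM). The kleisin gene Ncaph (Entrez 215387, chromosome 2) had 68.97 RPKM in replicate 3, 66.3 in replicate 1 and 58.3 in replicate 2 (mean 64.5 ± 5.53 RPKM). The other HEAT-repeat subunit gene, Ncapg (Entrez 54392, chromosome 5), had 47.2 RPKM in replicate 3, 39.1 in replicate 1 and 37.3 in replicate 2 (mean 41.2 ± 5.30 RPKM). The highest of the 3 thus exceeded the lowest 3.90-fold.

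Condensin II subunits were closer to each other, within 1.99-fold. The kleisin gene Ncaph2 (Entrez 52683, chromosome 15) led, with 60.7 RPKM in replicate 3, 51.2 in replicate 1 and 45.7 in replicate 2 (mean 52.5 ± 7.58 RPKM). Ncapd3 (Entrez 78658, chromosome 9), the counterpart of Ncapd2, had 41.4 RPKM in replicate 3, 33.4 in replicate 1 and 28.8 in replicate 2 (mean 34.5 ± 6.38 RPKM). Ncapg2 (Entrez 76044, chromosome 12), the counterpart of Ncapg, was the lowest of the 10 genes, with 30.1 RPKM in replicate 3, 25.6 in replicate 1 and 23.3 in replicate 2 (mean 26.3 ± 3.44 RPKM), yet still exceeded 79.2% of the genes with a count. The median of the 10 genes was 61.9 RPKM, against 13.2 RPKM for all 12147 genes tested.

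**Figure D1:**
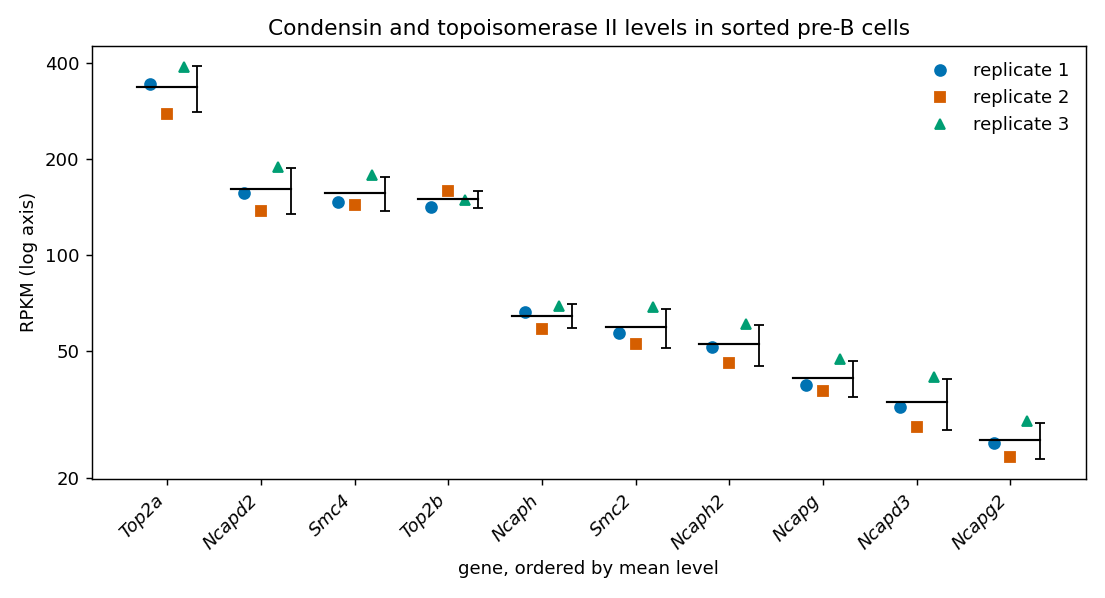
Level of each of the 10 genes in each library, in RPKM on a log axis, with the mean as a horizontal line and the SD over 3 libraries as a bar. Top2a stands alone at 336 RPKM; Ncapd2, Smc4 and Top2b lie together between 149 and 161 RPKM; the other 6 range down to Ncapg2 at 26.3 RPKM.

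The order of levels had a clear step at Top2a, which exceeded Ncapd2 at least 2.02-fold in every library. Ncapd2, Smc4 and Top2b did not differ beyond their spread: Ncapd2 was above Smc4 in 2 of 3 libraries, by 0.04 ± 0.09 on the log2(RPKM + 0.5) scale, and Smc4 above Top2b in 2 of 3, by 0.06 ± 0.20. Top2b in turn exceeded Ncaph at least 2.13-fold in every library. From Ncaph through Smc2, Ncaph2, Ncapg, Ncapd3 and Ncapg2, each gene was above the next in all 3 libraries, but the ranges of neighbours overlapped, and Ncaph exceeded Smc2 by as little as 1.01-fold in 1 library. Levels and their order depend on the gene lengths. With merged exon lengths of the GENCODE M21 annotation in place of the deposited ones, an alternative chosen after seeing the data, Top2a stood at 195 RPKM and still led, Smc4 (122 RPKM) came before Ncapd2 (116 RPKM), and Top2b, at 57.6 RPKM, was level with Smc2 (57.7 RPKM). The merged length of Top2b is 14613 bases against 5633 deposited, and that of Top2a 9013 against 5217. Ncaph (40.4 RPKM) then lay just below Ncaph2 (41.5 RPKM), and Ncapg (21.6 RPKM) below Ncapd3 (24.1 RPKM).

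Ratios between counterparts were then taken within each library. Ncapd2 exceeded Ncapd3 4.57-fold in replicate 3, 4.68-fold in replicate 1 and 4.77-fold in replicate 2, which is a difference of 2.21 ± 0.03 on the log2(RPKM + 0.5) scale. Ncapg exceeded Ncapg2 by 0.64 ± 0.03 on the same scale, with ratios between 1.53 and 1.60. These ratios varied far less between libraries than the levels themselves, whose coefficients of variation were 16.3% for Ncapd2 and 18.5% for Ncapd3.

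For the kleisins the condensin I form was only slightly above. Ncaph exceeded Ncaph2 1.14-fold in replicate 3, 1.29-fold in replicate 1 and 1.28-fold in replicate 2, with a log2 difference of 0.30 ± 0.10. Its sign rests on the gene lengths: with the GENCODE M21 lengths it was -0.032 ± 0.10, below 0 in replicate 3 and above 0 in replicates 1 and 2. Those lengths also left a smaller gap between Ncapg and Ncapg2, 0.30, and a wider one between Top2a and Top2b, 1.74. Summed over its 3 own subunits, condensin I stood at 305 RPKM in replicate 3, 262 in replicate 1 and 233 in replicate 2, and condensin II at 132, 110 and 97.8 RPKM in the same libraries, a ratio of 2.36 ± 0.04. Ncapd2 made up most of that sum.

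Within the core, Smc2 stood at 0.385 of Smc4 in replicate 3, 0.388 in replicate 1 and 0.366 in replicate 2, with a log2 difference of -1.39 ± 0.04. Top2a exceeded Top2b 2.61-fold in replicate 3 (95% counting interval 2.57 to 2.64), 2.44-fold in replicate 1 (2.39 to 2.50) and 1.75-fold in replicate 2 (1.71 to 1.79), a log2 difference of 1.16 ± 0.31. The topoisomerase ratio thus spread the most of the 5 between libraries, and the counting intervals of the 3 libraries did not overlap each other; intervals are exact binomial and cover counting error only. Each of the 5 differences had 1 sign in all 3 libraries. The exact two-sided sign-flip test over libraries gave p = 0.25 for each (0.25 after Benjamini-Hochberg adjustment over the 5), the smallest p that 3 libraries allow, so none could pass 0.05.

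**Figure D2:**
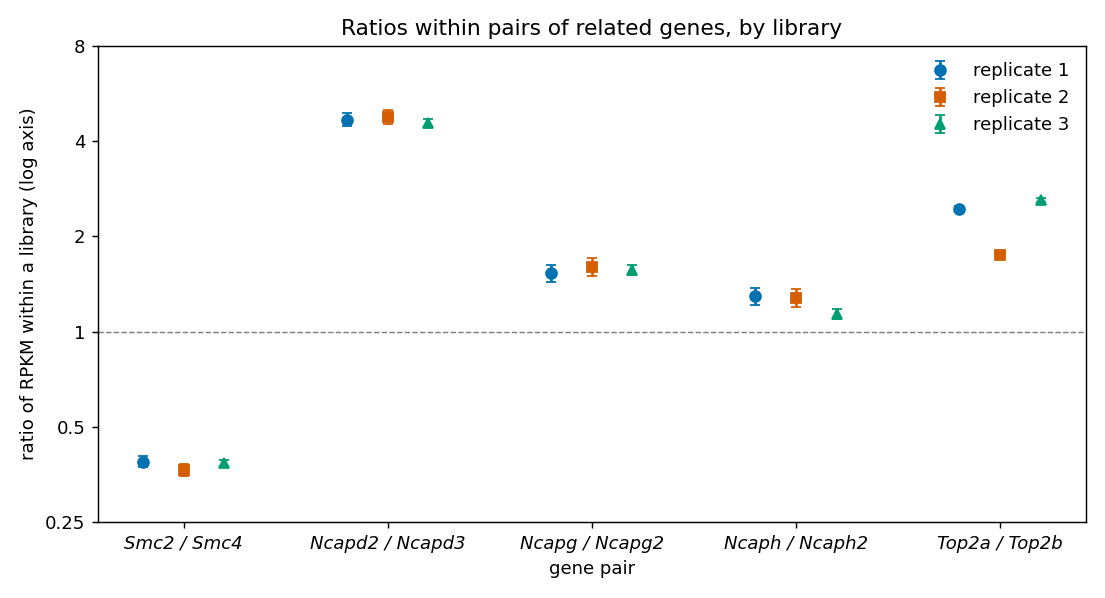
Ratio of RPKM between counterpart genes in each library, on a log axis, with exact 95% binomial intervals that cover counting error only. The 3 condensin I genes lie above their condensin II counterparts, from 1.14-fold for Ncaph over Ncaph2 to 4.77-fold for Ncapd2 over Ncapd3 with the deposited lengths, and Top2a over Top2b is 1.75 in replicate 2, against 2.44 and 2.61 in the others.

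All 8 condensin genes and Top2a had 1 order across the libraries, highest in replicate 3 and lowest in replicate 2, and Top2b had another. The order of the condensin genes was found for 21.9% of the 12147 genes tested. Of all genes, 35.1% were highest in replicate 3, 36.3% lowest in replicate 2 and, like Top2b, 36.5% highest in replicate 2. This order, with replicates 3 and 2 as its ends, was read from the values of these same genes. Shares with that order and ratios of replicate 3 over replicate 2 are therefore descriptions, not tests. In TMM-scaled CPM, replicate 3 was 1.44-fold higher than replicate 2 for Ncapd3, 1.40-fold for Top2a, 1.38-fold for Ncapd2, 1.33-fold for Ncaph2 and 1.18-fold for Ncaph, the smallest of the 9, while Top2b had a ratio of 0.938. Within the libraries of CASAVA 1.8.2, replicate 1 exceeded replicate 2 by 0.31 for Top2a, by between 0.03 (Smc4) and 0.21 (Ncapd3) for the condensin genes, and had a log2 ratio of -0.17 for Top2b (log2 CPM). The median over the 10 genes was 0.38 for replicate 3 over replicate 2, against 0.50 for 16 mitosis genes, 0.52 for 16 DNA replication genes and -0.0041 for all genes tested. In edgeR's contrast of replicate 3 with the others, 0 of the 16 genes of each cell cycle list passed, and 5 mitosis and 12 replication genes, all higher in replicate 3, had an unadjusted p under 0.05, against 5.01% of all genes. DESeq2 gave 0 and 0 adjusted, and 4 and 10 higher unadjusted, against 1.99% of all genes. Ncaph (0.24) lay below the lowest of the mitosis genes, at 0.27, and Top2b (-0.09) far below it. These, Smc4 (0.313) and Ncapg (0.342) lay below the lowest of the replication genes, at 0.344.

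Some other quantities had the same order across libraries and some did not. The ribosomal RNA gene Rn28s1 took 0.0467% of the counts of replicate 3, 0.0257% of replicate 1 and 0.0145% of replicate 2, and 10 immediate early genes summed to 603 RPKM in replicate 3, 407 in replicate 1 and 336 in replicate 2. The sum of the neutrophil markers was highest in replicate 3 too, as given above, but lowest in replicate 1. Of these 10 genes, 8 were highest in replicate 3, against 35.1% of all genes. Only 1 had the order of the condensin genes, against 21.9%. In edgeR's contrast of replicate 3 with the others, the neutrophil markers had a median log2 fold change of 0.61. It was 0.77 for the 8 immediate early genes tested, 0.31 for the 10 condensin and topoisomerase genes and -0.0070 for all genes tested. Of the 10 pre-B markers 0 were highest in replicate 3, against 35.1% of all genes. Their median log2 ratio of replicate 3 over replicate 2 was -0.17, against -0.0041 for all genes tested. In the edgeR contrast 0 of the 10 passed, and Rag1, a V(D)J recombinase gene (log2 fold change -0.37), and Il2ra (-0.41) were lower in replicate 3 at an unadjusted p under 0.05, against 4.62% of all genes; DESeq2 gave 0 adjusted and 2 unadjusted, against 1.78%. Rag1 was singled out after its values were seen. The part of these in the differences was not tested.

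**Figure D3:**
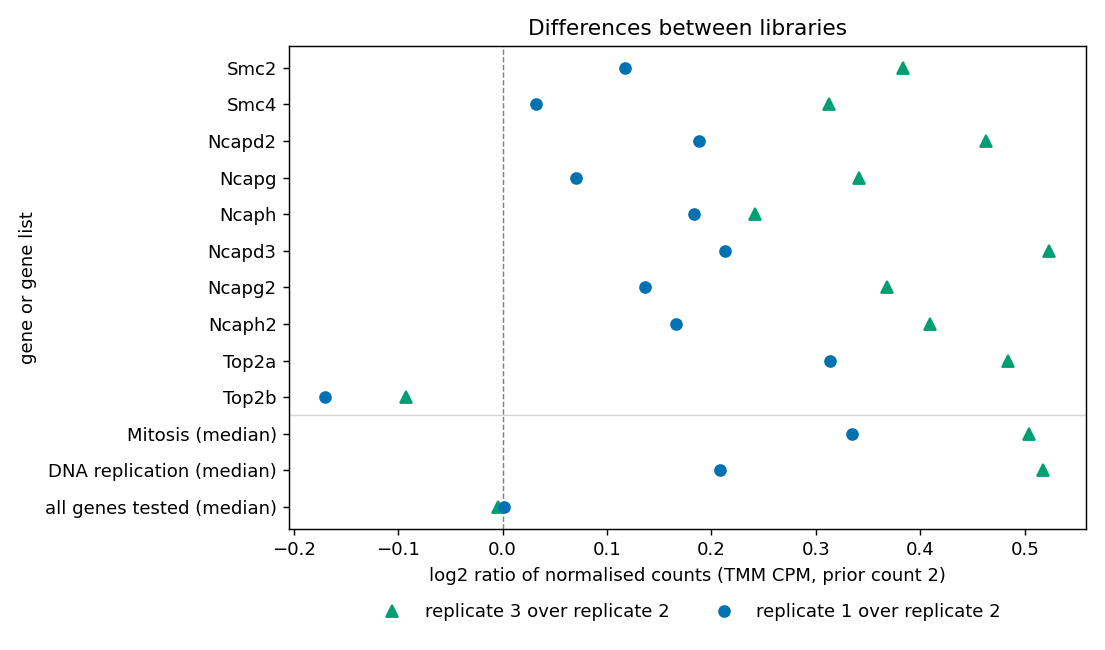
Log2 ratio of normalised counts (CPM scaled by TMM) of replicate 3 over replicate 2 (triangles) and replicate 1 over replicate 2 (circles) for each gene, with the medians of 2 cell cycle lists and of all genes tested. The 8 condensin genes and Top2a lie right of 0 in both, between 0.24 and 0.52 for replicate 3, while Top2b lies left of 0 at -0.09 and -0.17.

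A chi-square test against Poisson counting noise, adjusted over all genes by Benjamini-Hochberg, called a difference between libraries for all 10 genes and for 54.6% of the genes tested. The test finds smaller differences at higher counts, so this share is no like comparison for genes of high counts. All 16 mitosis genes, 16 replication genes and 10 pre-B markers passed too, and 4 of the 7 other topoisomerase and repair genes. Without replicate 2, Ncaph no longer passed (adjusted p = 0.219), and without replicate 3 neither Smc4 (0.367) nor Ncapg (0.323) did. Against genes of like abundance, 0 of the 10 were more variable in an edgeR quasi-likelihood fit of the mean alone, in which 0.0165% of all genes passed. At an unadjusted p under 0.05 there were 2, Top2a and Ncapd3, against 5.3% of all genes. The biological coefficient of variation lay between 9.84% (Ncaph) and 14.7% (Top2a), around the 13.1% common to all genes.

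Replicate 3 was also set against replicates 1 and 2 in 1 fit, along the CASAVA versions. In edgeR's quasi-likelihood test with Benjamini-Hochberg adjustment, 0 of the 10 genes passed in either direction, where 0.0576% of all genes were called higher and 0.0165% lower in replicate 3. The adjusted p lay between 0.418 and 0.988. At an unadjusted p under 0.05, 7 of the 10, all of them condensin genes, were higher in replicate 3, against 5.01% of all genes, and 0 were lower, against 4.62%. DESeq2 called 0 of the 10 adjusted, where it called 0.173% of all genes higher and 0.123% lower, and 4 unadjusted, all higher in replicate 3, against 1.99% of all genes higher and 1.78% lower. Ncapd3 had 41.4 RPKM in replicate 3 and a mean of 31.1 in replicates 1 and 2, a log2 fold change of 0.41 (SE 0.13, adjusted p = 0.418). Top2a had 388 RPKM in replicate 3 and a mean of 311 in the others, a log2 fold change of 0.32 (SE 0.15, adjusted p = 0.552), and Top2b 149 RPKM against 149.7, a log2 fold change of -0.01 (SE 0.13, adjusted p = 0.988). With 1 library against 2, the version, the depth and the library cannot be told apart.

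Regulators and partners of condensation were measured alongside. Of 11 genes, all were highest in replicate 3, against 35.1% of all genes, and 10 had the order of the condensin genes, against 21.9%. In the edgeR contrast 0 passed in either direction and 4 were higher in replicate 3 at an unadjusted p under 0.05, against 5.01% of all genes; DESeq2 gave 0 adjusted and 1 unadjusted, against 1.99%. Mki67, which coats mitotic chromosomes, had the highest mean, 259 ± 42.3 RPKM. Of the chromosomal passenger genes, Incenp stood at 109 ± 18.5 RPKM, Cdca8 at 99.3 ± 17.6 RPKM, Aurkb at 81.4 ± 12.3 RPKM and Birc5 at 36.5 ± 5.91 RPKM. The mitotic kinases that phosphorylate condensin subunits, Plk1 and Cdk1, stood at 54.8 ± 11.1 and 51.9 ± 8.01 RPKM. The chromokinesin Kif4, a partner of condensin I, stood at 30.1 ± 4.50 RPKM and the phosphatase-targeting Cdca2 at 23.0 ± 4.42 RPKM. Mcph1, which restrains condensin II, was the lowest at 3.87 ± 0.46 RPKM. Akap8, an anchoring protein linked to condensin recruitment, was the exception in order, at 66.4 RPKM in replicate 3, 59.1 in replicate 1 and 62.9 in replicate 2.

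With the deposited lengths, the other topoisomerases and the enzymes that clear trapped topoisomerase lay below Top2b. Top2b stood at 57.6 RPKM with the GENCODE M21 lengths, for which these other genes were not recomputed. Top1, which relaxes DNA through single-strand breaks, stood at 83.6 ± 8.71 RPKM, Top3b at 31.5 ± 2.65 RPKM, Top3a at 13.2 ± 0.64 RPKM and the mitochondrial Top1mt at 3.58 ± 0.36 RPKM. Tdp2, which removes TOP2 from DNA ends, stood at 31.7 ± 1.07 RPKM, Tdp1, its counterpart for TOP1, at 25.3 ± 3.45 RPKM, and Zfp451, a SUMO ligase that acts with TDP2, at 9.85 ± 1.49 RPKM. Of these 7 genes, 2 were highest in replicate 3, against 35.1% of all genes, and 0 passed the contrast in edgeR in either direction, adjusted or not (DESeq2 gave 0 adjusted and 0 unadjusted).

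Among the other SMC and kleisin genes, the cohesin subunits Rad21 (174 ± 16.3 RPKM), Smc1a (101 ± 5.54 RPKM) and Smc3 (63.8 ± 4.03 RPKM) lay near the condensin core. Rad21 was above Smc4 in every library, and the means of Smc3 and Smc2 differed by less than the SD of Smc2, with Smc2 the higher in replicate 3. Smchd1, a silencing factor of the inactive X, stood at 56.7 ± 0.83 RPKM, and Smc6 and Smc5 at 32.9 ± 2.10 and 24.3 ± 2.12 RPKM. Of the meiotic members, Smc1b had 4 counts in replicate 3 against 0 and 1 in replicates 1 and 2, Rec8 had 3 counts in all, and Rad21l had 0, which allows up to 0.151 RPKM (3 counts in the smallest library). All 6 genes tested were highest in replicate 3, against 35.1% of all genes. Their median log2 ratio of replicate 3 over replicate 2 was 0.15, against 0.38 for the condensin and topoisomerase genes. None of the 6 passed the contrast in edgeR, and 0 did at an unadjusted p under 0.05 (DESeq2 gave 0 adjusted and 0 unadjusted).

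**Figure D4:**
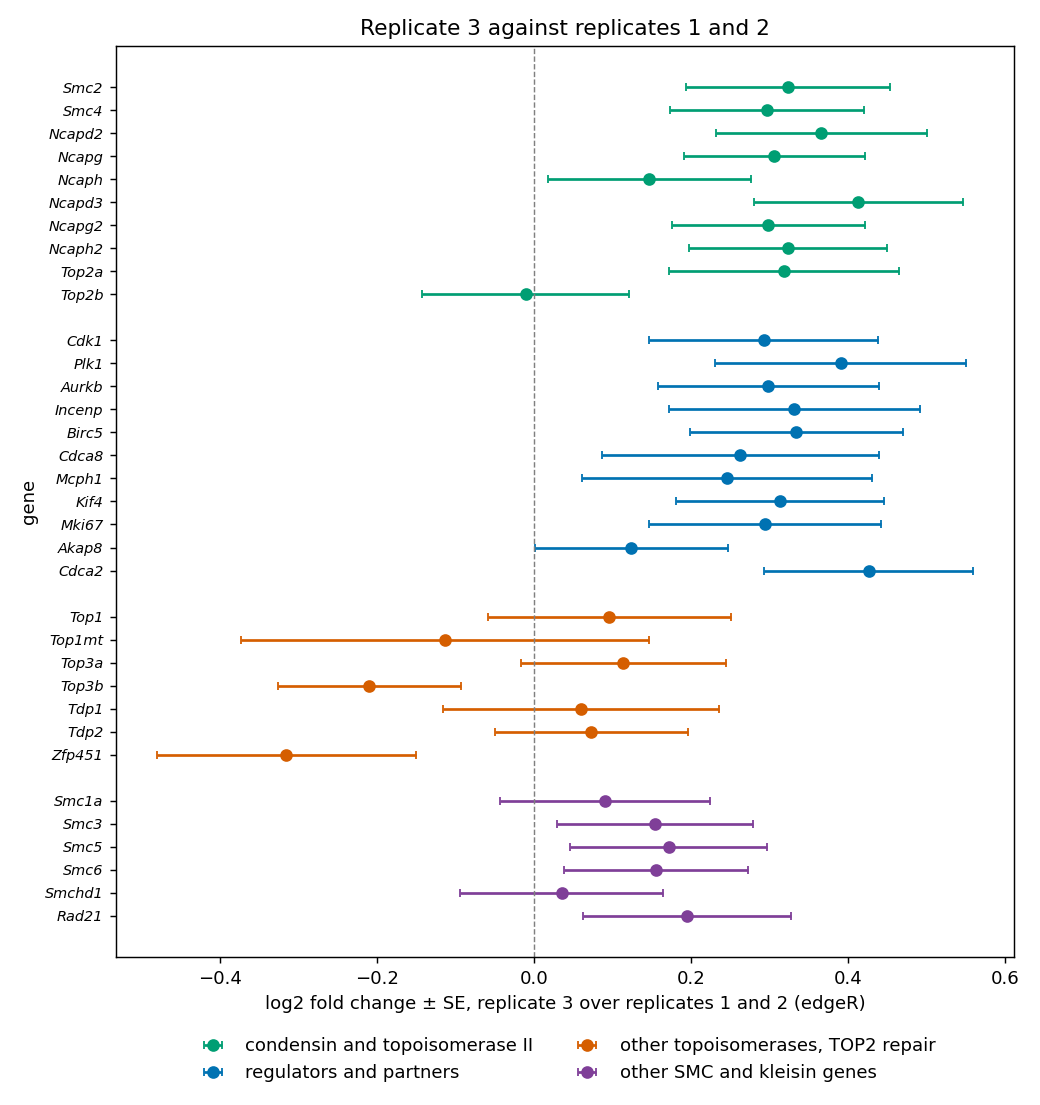
Log2 fold change of replicate 3 over replicates 1 and 2 with its SE from edgeR, for the condensin and topoisomerase II genes and 3 related lists. Ncapd3 lies farthest right of the 10 at 0.41 and Top2b lies at -0.01; no gene shown passed the adjusted threshold.

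Some rows lie inside or across these genes, and no source used here gives the strand setting of the counting. In GENCODE M21, exons of Sco2 and Tymp on the other strand cover 19.7% and 12.7% of the Ncaph2 exon bases; Sco2 had 1314 counts in replicate 3 against 393 and 338 in replicates 1 and 2, and Tymp had at most 26. Lcorl covers 13.4% of the Ncapg exon bases and Rarb 12.3% of those of Top2b, with at most 892 and 87 counts, and the small RNA gene Scarna10 3.78% of those of Ncapd2, with at most 8. How reads in these stretches were assigned is not known, so the levels of Ncaph2, Ncapg and Top2b are less certain. The microRNA genes Mir15b and Mir16-2 lie within Smc4, between its exons, and had 0 counts in all 3 libraries, which allows up to 3.90 and 2.63 RPKM. These rows are 64 and 95 bases long. Whether the libraries held RNA this short is not known, so 0 counts do not show that the microRNAs were absent. Trim59, a neighbour of Smc4, stood at 58.1 ± 8.44 RPKM and had the order of the condensin genes.

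By distance over the 3 libraries in mean-centred log2 CPM, the genes most like the mean of the 8 condensin genes were Zfp36l2, Adap1 and Kdelr2. Those most like Top2a were Ran, Perm1 and Kif23, and those most like Top2b were Akap9, Tmed5 and Prickle3. Perm1 had a mean of only 0.348 RPKM, against 43.7 for Ran and 63.1 for Kif23, so its profile is less certain. With 3 libraries many genes are alike by this measure: 4.66% of 12137 genes lay within 0.1 of the condensin mean, 3.08% within 0.1 of Top2a and 12.4% within 0.1 of Top2b.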

How the data were processed

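The authors deposited raw counts, 1 value per Entrez gene identifier and library, beside each gene's length in bases. Per the submitters' processing notes, the build was mm9 and featureCounts and CASAVA were used. Per the labels, CASAVA was 1.8.0 for replicate 3 and 1.8.2 for replicates 1 and 2, RNA was prepared with a column kit and libraries followed standard Illumina methods. No aligner, annotation or strand setting is named in the sources used here.

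Symbols were matched by Entrez identifier to RefSeq on GRCm38.p6, for names only (24176 of 26286 identifiers; 140 of 141 list genes). The analysis used edgeR 4.0.16 (with limma 3.58.1) in R 4.3.3, with TMM scaling (factors of 1.0028, 1.0003 and 0.9969 for replicates 3, 1 and 2). The filter filterByExpr (minimum count 10, minimum total 15) kept 12147 genes, all 10 described here included. RPKM was computed here from the counts and gene lengths; differences between genes use a pseudocount of 0.5, and log2 CPM a prior count of 2. Benjamini-Hochberg adjusted p-values were held to 0.05. Alternatives were DESeq2 1.42.0, other scalings, filters, pseudocounts and lengths, and leaving out each replicate. The scripts were tested on simulated data. Figures were drawn with matplotlib 3.10.9.

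The genes and the lists were chosen with earlier results of these data known. Named are the 10 genes, all genes of the lists on condensation partners, topoisomerases and SMC genes, rows that overlap a gene, the 3 genes nearest each of 3 profiles and leading members of the marker lists. Replicate numbers come from the sample titles.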

Additional observations from a re-analysis of the deposited data

How the results depend on the processing

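Libraries could not be paired across groups because all 3 belong to 1 group. Differences between counterpart genes were paired within each library. Summed over the 10 genes, the mean level was 1081 RPKM, 2561 in TPM and 693 RPKM with GENCODE M21 merged exon lengths, an alternative chosen after seeing the data; DESeq2 size factors, library totals and leaving out a replicate moved it by less than 1 SD. The 5 differences between counterparts kept their sign under every alternative run, except Ncaph minus Ncaph2, at -0.032 with GENCODE M21 lengths, where only the lengths differ. Top2b, with a log2 fold change of -0.011 for replicate 3 over the others, had -0.093 without replicate 1 and 0.077 without replicate 2.

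Over all genes, the Poisson test called 6627, and between 3145 (without replicate 3) and 5590 (without replicate 1) with a replicate left out. The variability test called 2 genes, 46 among all genes with a count, 0 with a robust fit, and between 2 and 44 (without replicate 2) with a replicate left out. For replicate 3 over the others, 7 genes were called higher and 2 lower; DESeq2 called 21 and 15, library totals 19 and 4, and all genes with a count 0 and 0. The causes were not tested. None of the 10 genes was called in the variability test under its alternatives, or in the contrast under these 3 alternatives and DESeq2 size factors in edgeR; leaving out a replicate gives the contrast no test. Intervals cover counting error only.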
